A study of Arabidopsis lyrata and Arabidopsis thaliana with 9 samples.

Results

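In leaves of Arabidopsis lyrata, a perennial relative of Arabidopsis thaliana, 71 of the 32644 identifiers in the count tables reached 1000 CPM (a count scaled to a common library total) or more in all 3 leaf libraries, and these 71 genes are described here. They were chosen by their leaf values, with CPM computed from the raw library totals. They made up 0.218% of the identifiers and held 19.9% ± 0.248 of leaf counts (SD, n = 3). The compared libraries were 3 of inflorescences and 3 of leaves, all from wild-type plants that had bolted, meaning that a flowering stem had emerged, grown in long days at 18 °C. Total RNA was extracted with a DNA digestion and made into directional RNA-seq libraries. The series asked how the DNA sites bound by a flower-controlling transcription factor, and the genes it acts on, evolve, and its A. thaliana libraries were not used here.

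In leaves of flowering plants, a large part of the RNA from the nucleus comes from few genes. Transcripts for the small subunit of Rubisco, the enzyme that fixes carbon dioxide, and for the chlorophyll-binding proteins of the light-harvesting antennae are known for very high levels there. Green parts of an inflorescence, such as stems and sepals, also photosynthesise, while petals and anthers hold tissues with other functions. The files identify A. lyrata genes by number, and 0 of the numbers matched the 34365 genes of the RefSeq table used here, so none of the 71 genes is named or given a function, and the labelled tissues could not be checked against marker genes. Each gene is called by its leaf rank, the place of its mean leaf CPM among all identifiers, with rank 1 the highest. No gene lengths entered the CPM, so a rank orders genes by their share of counts and not by the number of RNA molecules. Genes with near-identical copies could share reads, which could not be checked without names.

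Inflorescence libraries held 7211749 to 12729487 counts and leaf libraries 11419322 to 13786151. No 2 replicates agreed within sampling noise. Chi-square per gene was 5.81 to 25.9 in inflorescences, where libraries 1 and 3 were farthest apart, and 10.02 to 16.4 in leaves. The labels call the libraries of a tissue replicates without saying whether they came from separate plants, so the spread given here may in part be technical. At this depth counting error was small for the 71 genes, each with at least 202 counts in every inflorescence library and at least 11459 in every leaf library.

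The 71 genes held 5.54%, 5.69% and 5.57% of the counts of inflorescence libraries 1, 2 and 3, and 20.1%, 19.9% and 19.6% of those of leaf libraries 1, 2 and 3. The libraries of each tissue lay close together and the tissues far apart. Since the genes were chosen for high leaf values, a larger share in leaves was built in. Much of the leaf share rested on few genes. The share of leaf ranks 1 to 3 was 0.286% ± 0.00433 in inflorescences and 4.25% ± 0.113 in leaves, and that of leaf ranks 1 to 10 was 1.31% ± 0.0343 in inflorescences and 8.29% ± 0.219 in leaves (SD, n = 3 each). At the other end, the 40 genes with a leaf mean under 2000 CPM took 2.52% ± 0.0742 of the counts in inflorescences and 5.598% ± 0.195 in leaves. Since the 71 genes took less of the inflorescence libraries, all other identifiers together held 1.18 times the share of inflorescence counts that they held of leaf counts. In bulk tissue, fewer cells of a type and less RNA per cell cannot be told apart.

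**Figure D1:**
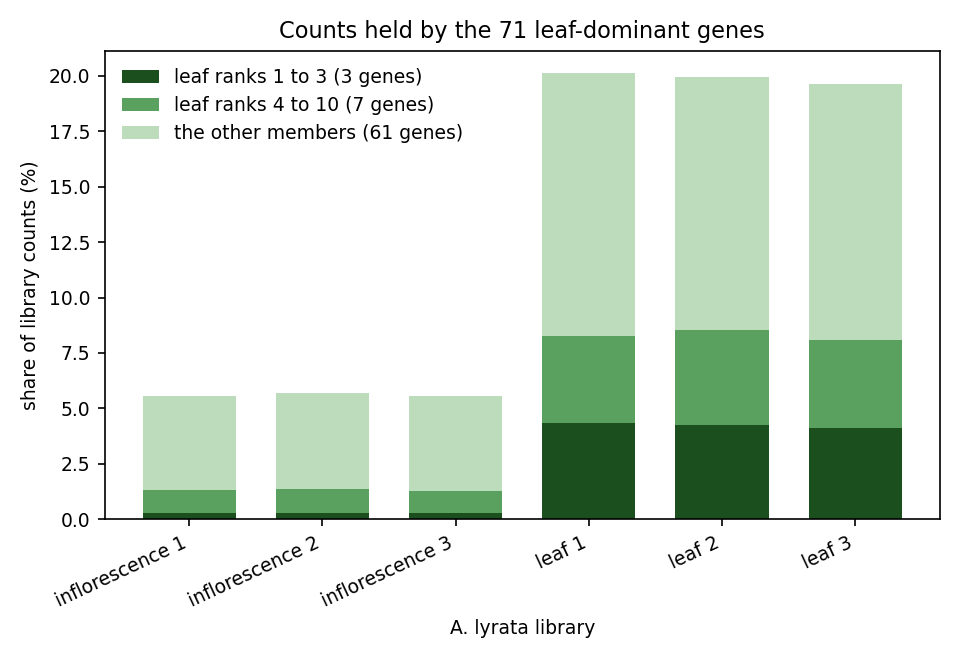
Bars give the share of the counts of each A. lyrata library (%, y axis) held by the 71 genes, with the 3 inflorescence libraries on the left and the 3 leaf libraries on the right, split into leaf ranks 1 to 3, leaf ranks 4 to 10 and the other 61 genes. The inflorescence bars reach 5.54% to 5.69% and the leaf bars 19.6% to 20.1%.

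The largest steps in mean leaf CPM lay among the first 7 ranks, and later steps were smaller. Leaf rank 1 had 912, 879 and 866 CPM in inflorescence libraries 1, 2 and 3, and 20133, 18595 and 17786 CPM in leaf libraries 1, 2 and 3. Leaf rank 2 had 663, 698 and 719 CPM in inflorescences, and 12779, 13728 and 13027 CPM in leaves. Leaf rank 3 had 1301, 1234 and 1308 CPM in inflorescences, and 10623, 10290 and 10478 CPM in leaves. These 3 genes held ranks 1, 2 and 3 in each leaf library, and no other member had the same rank in all 3. Their inflorescence ranks were 72, 107 and 43, and in none of them did the inflorescence values come near the leaf values. In mean leaf CPM, rank 1 was 1.43 times rank 2, rank 2 was 1.26 times rank 3, and rank 3 was 1.46 times rank 4. Rank 6 was 1.24 times rank 7, and no later step exceeded 1.14-fold.

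Leaf rank 4 was abundant in both tissues. It had 3572, 4083 and 3833 CPM in inflorescences, and 7233, 7131 and 7180 CPM in leaves. With a mean of 3829 ± 255 CPM it held inflorescence rank 5, the highest inflorescence rank of the 71 genes (SD, n = 3). Its leaf libraries lay within 1.01-fold of each other, and all inflorescence values were below all leaf values.

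Leaf ranks 5, 6 and 7 stood at similar inflorescence levels. Rank 5 had 573, 579 and 672 CPM in inflorescences, and 7598, 7004 and 6648 CPM in leaves. Rank 6 had 715, 667 and 677 CPM in inflorescences, and 6065, 7729 and 6407 CPM in leaves, with leaf library 2 above the other two. Rank 7 had 683, 721 and 731 CPM in inflorescences, and 5426, 5631 and 5193 CPM in leaves. The mean inflorescence CPM of the 3 genes was 11.6-fold, 9.81-fold and 7.61-fold lower than the leaf mean.

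Leaf rank 8 had the widest leaf spread of all 71 genes. It stood at 2752, 2685 and 2091 CPM in inflorescences, and at 3491, 6128 and 4632 CPM in leaves, a coefficient of variation (CV, the SD over the mean) of 27.8% in leaves. All its inflorescence values were below all its leaf values, but the lowest leaf library lay closer to the inflorescences than to the highest leaf library. Leaf rank 9 had 1304, 1359 and 1321 CPM in inflorescences, and 4671, 4335 and 4986 CPM in leaves. Leaf rank 10 had 521, 535 and 546 CPM in inflorescences, and 4600, 4580 and 4454 CPM in leaves, with a narrow range in both tissues.

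Below the first 10, leaf means ran from 4270 CPM at rank 11 to 1047 CPM at rank 77. By leaf mean, 12 genes stood at 4000 CPM or more, 6 between 3000 and 4000 CPM, 13 between 2000 and 3000 CPM, 15 between 1500 and 2000 CPM and 25 between 1000 and 1500 CPM. The median leaf mean was 1729 CPM. Inflorescence means of all 71 genes ran from 28.9 to 3829 CPM with a median of 538 CPM. The rule cut leaf values off at 1000 CPM and set no bound in inflorescences, so a wider inflorescence range was built in.

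**Figure D2:**
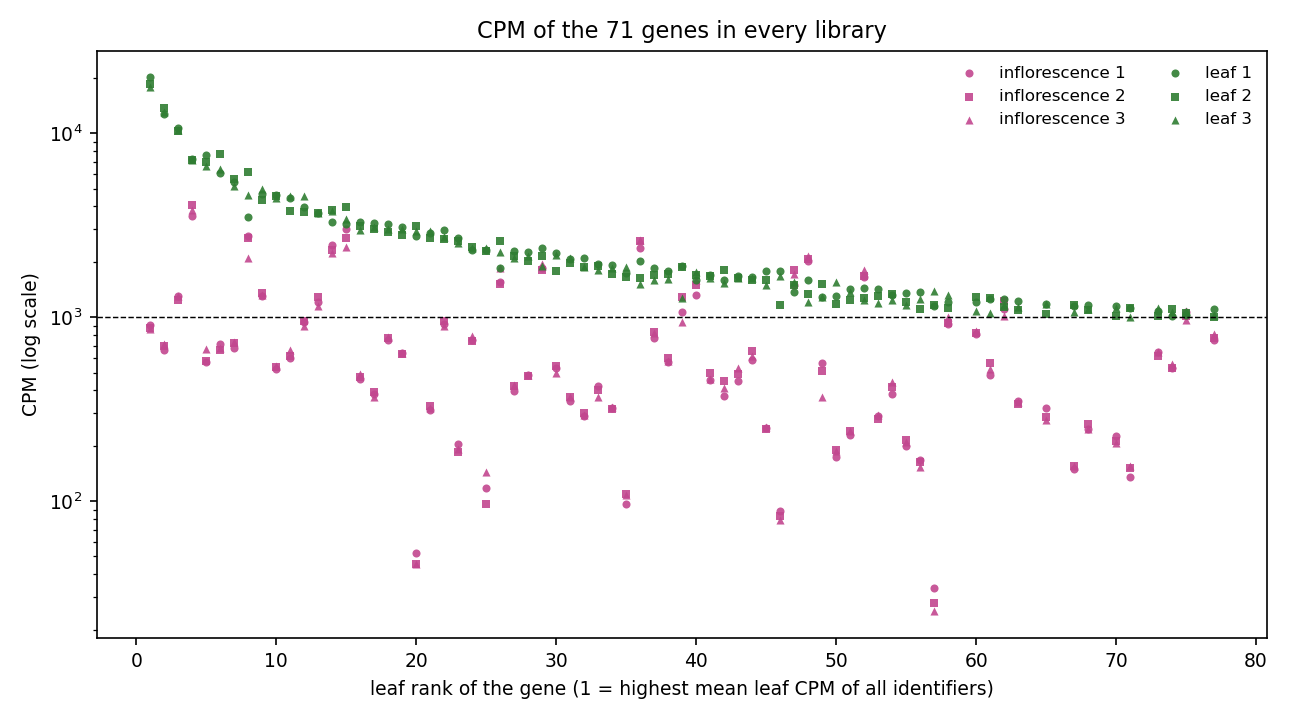
Each of the 71 genes is plotted at its leaf rank (x axis) with its CPM (y axis, log scale) in the 3 inflorescence libraries (pink) and the 3 leaf libraries (green), and the dashed line marks the 1000 CPM that chose the genes. Mean leaf CPM falls with rank by construction, though single libraries can break the order, while inflorescence means scatter between 28.9 and 3829 CPM with little order by leaf rank.

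The last genes of the list show how close the choice came to its threshold. Leaf rank 74 had 527, 533 and 554 CPM in inflorescences, and 1016, 1111 and 1073 CPM in leaves. Leaf rank 75 had 1070, 1012 and 962 CPM in inflorescences, and 1034, 1058 and 1087 CPM in leaves, so the tissues overlapped. Leaf rank 77 had 747, 766 and 806 CPM in inflorescences, and 1115, 1003 and 1023 CPM in leaves. Among members, the lowest values of any leaf library were 1003 CPM at rank 77 and 1007 CPM at rank 71, and among identifiers left out the highest such values were 991 CPM at rank 69 and 988 CPM at rank 72. A further 9 identifiers averaged 1000 CPM or more in leaves without reaching it in every library. They are among the 18 that reached it in at least 1 leaf library but not in all 3.

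Most of the 71 genes had less CPM in inflorescences than in leaves. The median log2 ratio of inflorescence over leaf mean CPM was -2.00, with quartiles of -2.88 and -0.95, against a median of 0.21 over the 19638 genes that passed the filter on low counts, which all 71 members passed. Mean CPM was lower in inflorescences by 16-fold or more in 7 genes (2.40% of all genes tested), by 4-fold or more in 35 (7.22% of all genes tested) and by 2-fold or more in 52 (15.4% of all genes tested). It was higher in inflorescences in 4 genes (58.6% of all genes tested). All inflorescence libraries lay below all leaf libraries in 63 genes (30.5% of all genes tested) and above them in 3 (46.3% of all genes tested). The remaining 5 genes overlapped. Leaf values chose the genes, so these counts describe the list and support nothing about it. With TMM scaling, which corrects for the makeup of the libraries, ratios were lower by 0.17 in log2, so that the median was -2.17 for the members and 0.04 for all genes tested.

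edgeR's quasi-likelihood test, fitted over all genes with Benjamini-Hochberg adjustment, called 67 of the 71 lower in inflorescences at an adjusted p under 0.05, where 34.1% of all genes tested were called lower, and 2 higher, where 37.3% of all genes were called higher. The rule had used the leaf side of this contrast, so nothing is read from these counts. The 2 called higher were leaf ranks 36 and 48, and ranks 47 and 52 were called neither way. With 1 library left out, 1 member was called higher without leaf library 2, leaf library 3, inflorescence library 2 or inflorescence library 3, and 3 without leaf library 1. DESeq2 and limma-voom also called rank 52 higher.

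Choosing by 1 leaf library and testing in the other 2 gave similar shares. All 71 members are in each set chosen this way, so the result is no separate support for the list. Identifiers were chosen at 1000 CPM or more in 1 leaf library and tested in the other 2 leaf libraries against the 3 inflorescence libraries. Leaf library 1 chose 82, of which 76 were called lower in inflorescences, where 32.9% of all genes were called lower, and 3 higher, where 36.6% were called higher (edgeR adjusted p under 0.05). Leaf library 2 chose 78, of which 72 were called lower against 31.7% of all genes, and 1 higher against 36.0%. Leaf library 3 chose 79, of which 75 were called lower against 31.9% of all genes, and 1 higher against 36.1%. In each set 71 identifiers reached 1000 CPM in both other leaf libraries, which are the members. Median log2 ratios against the leaf libraries not used for choosing were -2.11, -1.97 and -2.05 for the sets of leaf libraries 1, 2 and 3. The identifiers chosen in leaf library 1 held 21.4% of that library, and 20.98% and 20.8% of the other 2 leaf libraries. The shares over all genes were not matched for level.

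**Figure D3:**
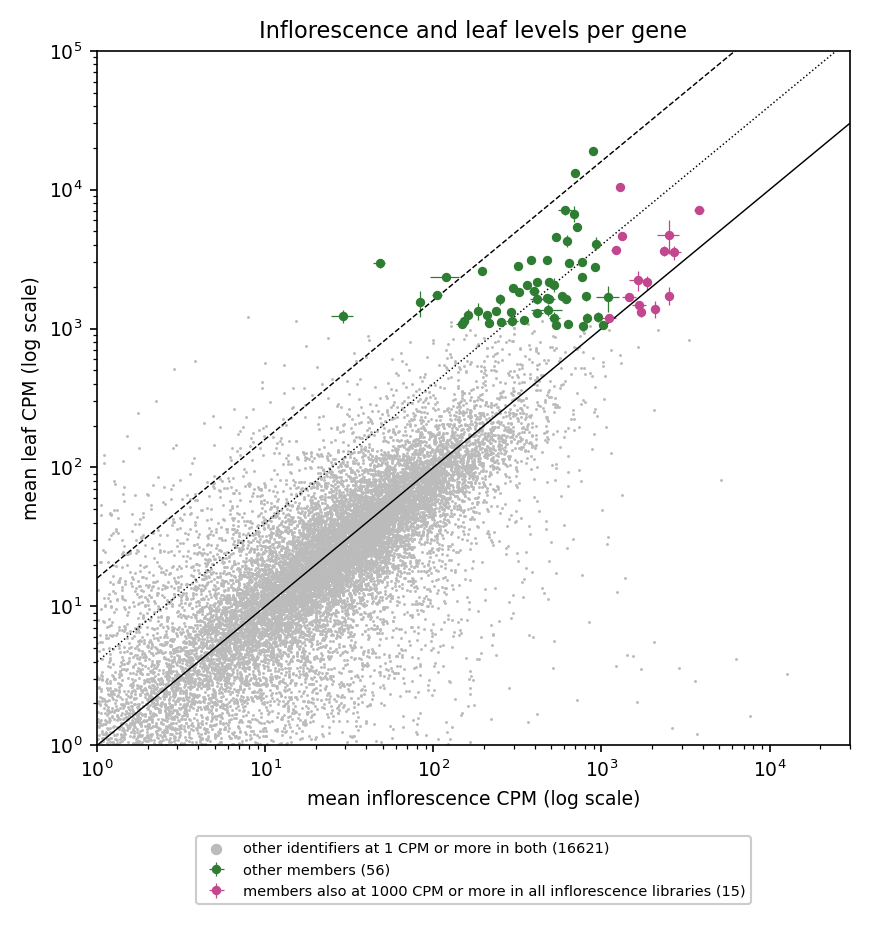
Mean inflorescence CPM (x axis) is plotted against mean leaf CPM (y axis), both on log scales, for 16621 other identifiers at 1 CPM or more in both tissues (grey), for 15 members at 1000 CPM or more in all 3 inflorescence libraries (pink) and for the other 56 members (green), with bars of 1 SD over 3 libraries. Solid, dotted and dashed lines mark equal means, 4-fold and 16-fold lower inflorescence means, and 4 members lie below the solid line.

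In 7 genes mean CPM was lower in inflorescences by 16-fold or more. They were leaf ranks 1, 2, 20, 25, 35, 46 and 57, and together they took 0.196% ± 0.00240 of the counts in inflorescences and 4.18% ± 0.0807 in leaves (SD, n = 3 each). The lowest ratio was that of leaf rank 20, identifier 477244. It had 52.3, 45.6 and 45.6 CPM in inflorescences, and 2749, 3145 and 2928 CPM in leaves, a log2 ratio of -5.94 ± 0.0867 (SE) that makes it 61.5-fold lower in inflorescences. The next was leaf rank 57, identifier 475320. It had 33.6, 28.0 and 25.2 CPM in inflorescences, and 1157, 1161 and 1380 CPM in leaves, a log2 ratio of -5.41 ± 0.147 (SE) and 42.6-fold lower in inflorescences. Their inflorescence ranks were 4991 and 7622, the last 2 of the list, far from their leaf ranks. Leaf rank 1 had the next lowest ratio, with a log2 value of -4.41 ± 0.0569 (SE).

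Of the others, leaf ranks 25 and 35 were singled out after their values were seen. Leaf rank 25 averaged 119 ± 23.6 CPM in inflorescences and 2336 ± 52.5 CPM in leaves, and its inflorescence CV of 19.8% was among the widest of the list. Leaf rank 35 averaged 105 ± 7.197 CPM in inflorescences and 1752 ± 115 CPM in leaves. Leaf rank 46 had 88.2, 82.6 and 79.2 CPM in inflorescences, and 1790, 1166 and 1672 CPM in leaves. Its leaf library 2 stood well below the others, and its rank moved by 21 places between leaf libraries. Leaf rank 61 moved as far, and no member moved further. In total 3 members averaged under 100 CPM in inflorescences and 10 under 200 CPM.

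A middle group of 28 genes was lower in inflorescences by 4-fold to 16-fold. Its genes ranged from leaf rank 3 to leaf rank 71 and took 1.18% ± 0.0107 of the counts in inflorescences and 8.19% ± 0.168 in leaves (SD, n = 3 each). Their means ran from 147 to 1281 CPM in inflorescences, with a median of 342 CPM, and from 1087 to 10463 CPM in leaves, with a median of 2097 CPM. This was the band with the largest share of leaf counts. A further 17 genes, between leaf ranks 9 and 65, were lower by 2-fold to 4-fold. They took 1.096% ± 0.0298 of the counts in inflorescences and 3.48% ± 0.0776 in leaves, with medians of 525 CPM in inflorescences and 1663 CPM in leaves.

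The remaining 19 genes held more of the inflorescence libraries than the other 52 together. The bands were cut by the ratio of inflorescence over leaf, which favours these 19 there. The 15 lower by under 2-fold took 2.33% ± 0.0536 of the counts in inflorescences and 3.47% ± 0.222 in leaves. The other 4 had a higher mean in inflorescences, as did 58.6% of all genes tested. They took 0.800% ± 0.0412 in inflorescences and 0.590% ± 0.0461 in leaves (SD, n = 3 each). All 5 members whose tissues overlapped, leaf ranks 29, 39, 47, 62 and 75, were among these 19.

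Of the 4 genes higher in inflorescences, leaf rank 48 had the highest ratio. This gene, identifier 474136, had 2021, 2080 and 2147 CPM in inflorescences, and 1586, 1336 and 1215 CPM in leaves, a log2 ratio of 0.59 ± 0.115 (SE). Leaf rank 36, identifier 488656, had 2367, 2598 and 2638 CPM in inflorescences, and 2025, 1637 and 1525 CPM in leaves, a log2 ratio of 0.55 ± 0.132 (SE). Leaf rank 52 had 1658, 1682 and 1800 CPM in inflorescences, and 1437, 1275 and 1243 CPM in leaves, a log2 ratio of 0.38 ± 0.0741 (SE). In these 3 genes every inflorescence library was above every leaf library, and all 3 ran in the order leaf library 1, 2, 3 from high to low and inflorescence library 3, 2, 1. Leaf rank 47 averaged 1673 ± 164 CPM in inflorescences and 1476 ± 94.1 CPM in leaves, with overlap between tissues. Its log2 ratio was 0.18 with raw totals and 0.01 with TMM scaling, and it turned to -0.06 when the 71 genes were left out of the library totals, while ranks 36, 48 and 52 stayed positive under all 3 scalings.

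By the same threshold of 1000 CPM in all 3 libraries, 44 identifiers stood out in inflorescences, and 15 of them were members. These 15 were 21.1% of the leaf list and 34.1% of the inflorescence list. They took 2.93% ± 0.0494 of the counts in inflorescences and 5.11% ± 0.153 in leaves, and the other 56 members took 2.67% ± 0.0334 in inflorescences and 14.8% ± 0.322 in leaves (SD, n = 3 each). The 15 outweighed the other 56 in inflorescences but not in leaves. They were split off by their inflorescence CPM, so a tilt towards them there was built in. Of the 29 identifiers on the inflorescence list alone, 17 averaged under 10 CPM in leaves and 8 averaged 400 CPM or more.

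Besides leaf ranks 3, 4, 8, 9, 36, 47, 48 and 52, the members abundant in both tissues were leaf ranks 13, 14, 15, 26, 29, 40 and 62, which were singled out after their values were seen. Leaf rank 13 averaged 1218 ± 71.1 CPM in inflorescences and 3689 ± 19.6 CPM in leaves, where its CV of 0.532% was the narrowest of the list. Leaf rank 14 averaged 2347 ± 129 CPM in inflorescences and 3640 ± 317 CPM in leaves. Leaf rank 15 averaged 2701 ± 292 CPM in inflorescences and 3531 ± 395 CPM in leaves. Both had all inflorescence values below all leaf values, with inflorescence ranks of 17 and 12. Leaf rank 26 averaged 1643 ± 186 CPM in inflorescences and 2241 ± 372 CPM in leaves. Leaf rank 29 averaged 1867 ± 75.6 CPM in inflorescences and 2147 ± 242 CPM in leaves. The libraries of rank 29 overlapped between tissues, and those of rank 26 did not. Leaf rank 40 averaged 1466 ± 138 CPM in inflorescences and 1679 ± 83.7 CPM in leaves. Leaf rank 62 averaged 1115 ± 101 CPM in inflorescences and 1187 ± 55.7 CPM in leaves, a difference smaller than its inflorescence SD.

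The median inflorescence rank of the 71 genes was 157. By mean CPM, 1 member was among the first 10 identifiers of inflorescences, 20 among the first 71, 43 among the first 200, 56 among the first 500 and 63 among the first 1000. Single libraries gave close values, with 21, 20 and 19 members among the first 71 identifiers of inflorescence libraries 1, 2 and 3, and 66, 67 and 67 among the first 71 of leaf libraries 1, 2 and 3. Across the 71 genes, leaf and inflorescence means had a Spearman rho of 0.33, a description over genes that share the same 6 libraries. The lowest median ratios were those of the genes with the highest leaf means. The median log2 ratio was -4.25 for the 3 genes with a leaf mean of 10000 CPM or more, -3.11 for the 4 between 5000 and 10000 CPM, -2.14 for the 5 between 4000 and 5000 CPM, -1.79 for the 6 between 3000 and 4000 CPM, -2.22 for the 13 between 2000 and 3000 CPM, -1.82 for the 15 between 1500 and 2000 CPM and -1.65 for the 25 under 1500 CPM. Leaf means enter both sides of this relation, and each of the last 3 bands also spanned ratios from below -4 to near or above 0.

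**Figure D4:**
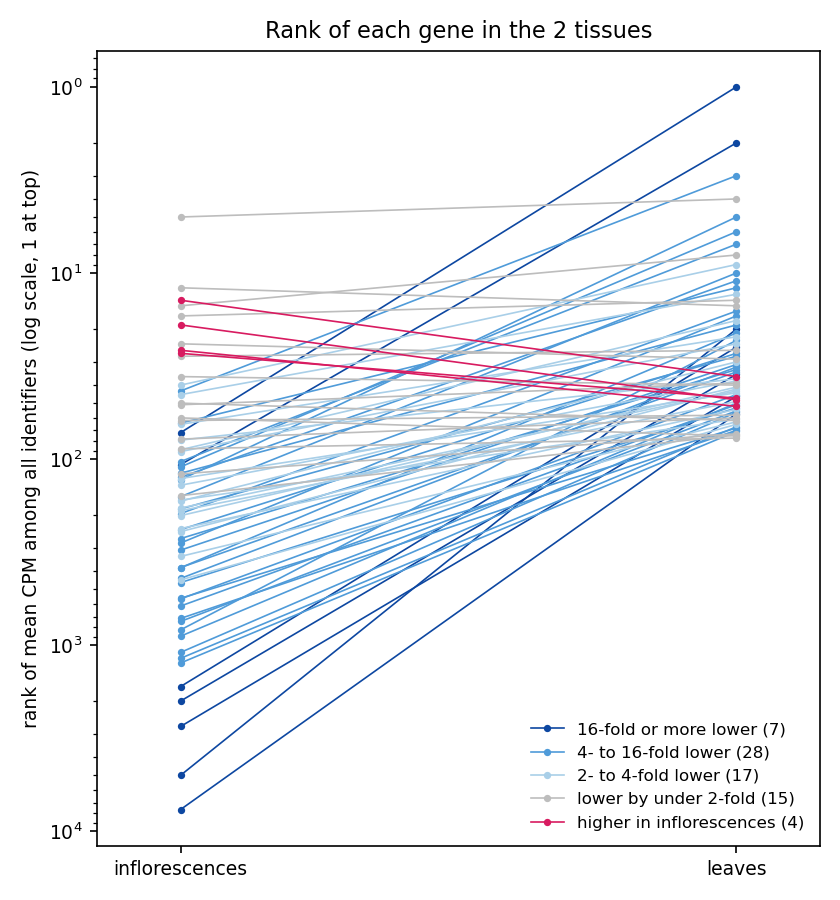
Lines join the rank of each of the 71 genes in inflorescences (left) to its rank in leaves (right) by mean CPM among all identifiers (y axis, log scale, rank 1 at the top), coloured by how far the mean CPM differed. Inflorescence ranks run from 5 to 7622, and the 4 genes higher in inflorescences are those that rank 14 to 27 there and 36 to 52 in leaves.

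Replicate leaf libraries gave close levels for most of the 71 genes. The median CV was 4.42% in inflorescences and 6.33% in leaves, and it was the leaf CV that was wider in 45 of the 71 genes. CVs ran from 0.703% to 21.1% in inflorescences and from 0.532% to 27.8% in leaves. In inflorescences 41 genes had a CV under 5% and 7 over 10%, and in leaves 26 had a CV under 5% and 14 over 10%. The CV that counting error alone would give had a median of 1.35% in inflorescences and 0.695% in leaves. The measured CV was above it in 65 genes in inflorescences and in all 71 in leaves. By these medians counting error was a small part of the spread, but not for every gene in inflorescences. Leaf rank 34, for example, had a counting CV of 1.75% and a measured CV of 1.31% there. The next 71 identifiers, at leaf ranks 59 to 142, had a median leaf CV of 9.24% and a median log2 ratio of -1.48, but the rule kept out genes near the threshold that fell below it in any 1 library, which bears on both values.

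The widest leaf spreads did not come from the same library. Besides leaf ranks 8 and 46, leaf rank 39 had a CV over 20%, with 1070, 1290 and 942 CPM in inflorescences, and 1898, 1879 and 1265 CPM in leaves. The departure was upward in leaf library 2 and downward in leaf library 1 for rank 8, downward in leaf library 2 for rank 46 and downward in leaf library 3 for rank 39. These were the only 3 members whose highest leaf library exceeded the lowest by more than 1.5-fold, and in inflorescences 1 member did so. That member, leaf rank 49, was named after its values were seen, with 565, 513 and 369 CPM in inflorescences, and 1280, 1512 and 1288 CPM in leaves. The median ratio of highest to lowest library was 1.09 in inflorescences and 1.13 in leaves.

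One leaf library tended to hold the highest values. Leaf library 1 was the highest of the 3 for 41 genes, leaf library 2 for 16 and leaf library 3 for 14, and the lowest for 14, 31 and 26 genes in the same order. Inflorescence library 1 was the highest for 19 genes, library 2 for 24 and library 3 for 28, and inflorescence library 1 was the lowest for 37. CPM values of a library share 1 total, so these orders are not independent between genes. Among the 14 genes with a leaf CV over 10%, leaf library 1 was highest in 7 and lowest in 5.

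**Figure D5:**
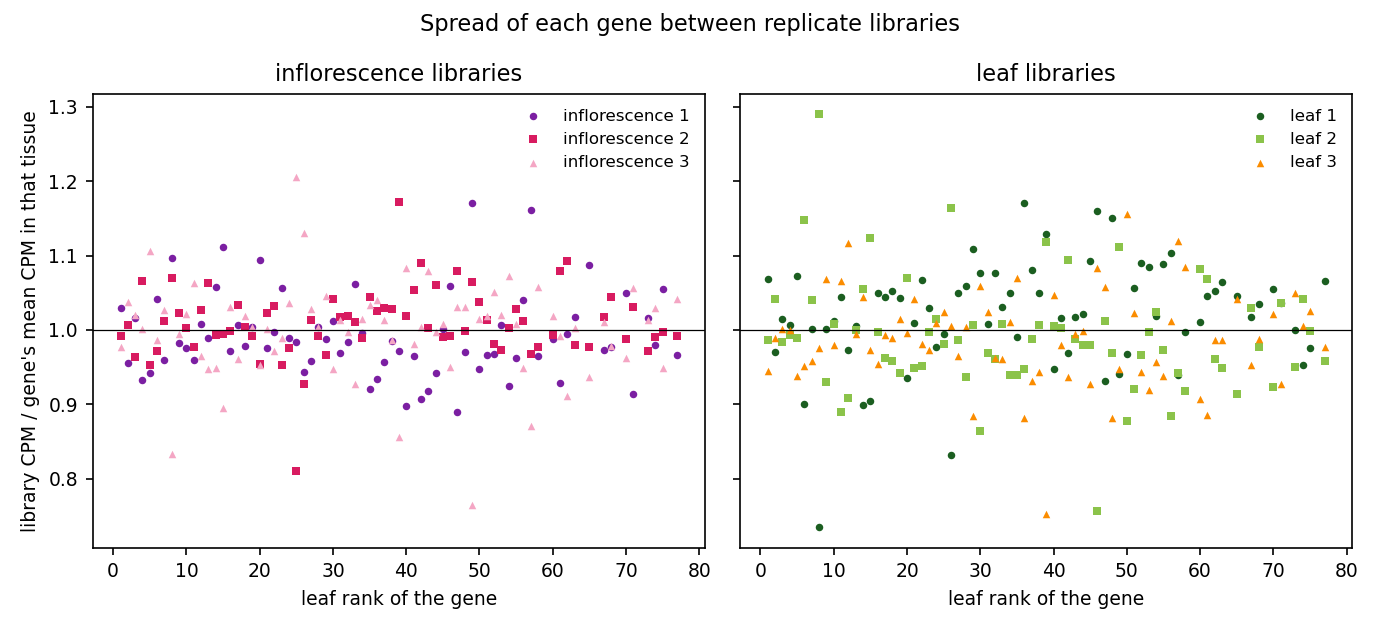
The CPM of each library divided by the mean of the gene in that tissue (y axis) is plotted by leaf rank (x axis) for the 71 genes, with inflorescence libraries on the left and leaf libraries on the right. Most points lie near 1, where the median CV is 4.42% in inflorescences and 6.33% in leaves, and the widest departures in leaves belong to leaf ranks 8, 39 and 46.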

How the data were processed

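RNA-seq libraries of A. lyrata inflorescences and leaves, 3 each, were analysed. The authors deposited raw counts per identifier, all whole numbers. TAIR10 is named by the submitters' processing notes. Not given in the sources used here are the aligner, the counting tool, strand use in counting and the A. lyrata genome. The members and lists were chosen with earlier results of these data known.

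CPM used raw library totals, and a mean ± SD covers 3 libraries. A ratio is the log2 of mean inflorescence CPM over mean leaf CPM, with an SE from log2 values. Counts were filtered with filterByExpr, scaled with TMM and fitted in edgeR 4.0.16 (R 4.3.3) with tissue as the only term over 19638 genes, with a Benjamini-Hochberg threshold of 0.05. The fit was tested on simulated data. Alternatives were RLE scaling, DESeq2 1.42.0, limma-voom (limma 3.58.1), glmTreat against 2-fold, no filter, a replicate block, other thresholds and leaving out each library. Replicate numbers did not pair the libraries. Values per library were set to be given for leaf ranks 1 to 10, the last 3, and the 3 members each with the highest ratio, the lowest ratio and the widest leaf CV. Without names, 4 identifiers are printed. Python 3.11.15 with pandas 2.3.3, numpy 2.4.6 and matplotlib 3.10.9 was used for the rest.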

Additional observations from a re-analysis of the deposited data

How the results depend on the processing

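Over 152 values recomputed under alternatives, 112 stayed within the spread between libraries or, for counts, within 1.5 times, and 40 moved further. Only the median log2 ratio was checked for direction, and it stayed negative in every setting. Some values could not move, such as leaf shares when an inflorescence library was left out. At a threshold of 500 CPM there were 179 genes, holding 27.9% of leaf and 9.796% of inflorescence counts, with 62 at that threshold in all inflorescence libraries, a median log2 ratio of -1.72 and a median leaf CV of 7.02%. At 2000 CPM there were 27, with 13.5%, 2.64%, 4, -2.72 and 4.79% in the same order. TMM and RLE library sizes gave summed levels of 21.6% and 21.3% in leaves and median log2 ratios of -2.17 and -2.14, and totals without the 71 genes, an alternative chosen after seeing the data, gave -2.24. Choosing by the leaf mean gave shares of 20.9% in leaves and 5.85% in inflorescences, and totals without the 10 most abundant identifiers gave 22.6% and 6.28%.

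Leaving out 1 library at a time gave 71 to 76 members, 19.8% to 20.5% of leaf counts, 5.55% to 5.83% of inflorescence counts, 15 to 17 members at 1000 CPM in all inflorescence libraries, median log2 ratios of -2.19 to -1.96, median CVs of 3.18% to 4.64% in inflorescences and 4.56% to 6.33% in leaves, 65 to 67 members called lower and 1 to 3 called higher. Calls over all genes ranged from 6136 to 6666 lower and 6904 to 7410 higher. The rule asks for all libraries, so leaving 1 out can only keep or raise the member counts. The 71 and the 15 are therefore the lower ends of these ranges by construction, and are no lower bounds in any other sense.

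A test against 2-fold (glmTreat) called 53 members lower and 0 higher, with 0 higher also at an unadjusted p under 0.05, against 2 by the quasi-likelihood test and 3 each by DESeq2 and limma-voom. It called 2654 genes lower and 3580 higher over all genes, since it asks for more than a difference from 0. Over all genes, the quasi-likelihood test called 7319 higher, DESeq2 7070 and limma-voom 7332.

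Correlations of the deviations of same-numbered libraries were 0.101, 0.140 and -0.079, so the numbers were not taken to pair the libraries. With a replicate block, 65 members were called lower and 2 higher, against 6545 lower and 7190 higher over all genes. Among identifiers chosen in leaf library 1, 3 were called higher with the block, 3 by edgeR without it and 3 by DESeq2. Among identifiers chosen in leaf library 2 or 3, the block left 0 called higher, also at an unadjusted p under 0.05. Without it, edgeR called 1 and DESeq2 2 in each. The cause was not tested. Over all genes, edgeR without the block called 36.6%, 36.0% and 36.1% higher in the fits for leaf libraries 1, 2 and 3. The shares for the block and DESeq2 are not given, so nothing is read from these counts. Depth limits little here, as the median counting CV was 1.35% in inflorescences and 0.695% in leaves.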

Other observations

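The identifier at leaf rank 66 averaged above the threshold in leaves and was left out because it did not reach it in every library. It had 385, 468 and 483 CPM in inflorescences, and 349, 2124 and 915 CPM in leaves. A leaf CV of 80.3% set it apart from the members, of which none exceeded 27.8%. Of the 9 identifiers left out in this way, leaf ranks 59 and 64 had the lowest inflorescence levels. Leaf rank 59 had 7.93, 8.04 and 7.56 CPM in inflorescences, and 1468, 920 and 1261 CPM in leaves, and leaf rank 64 had 15.9, 11.6 and 18.3 CPM in inflorescences, and 1277, 941 and 1206 CPM in leaves. In both, leaf library 2 was the lowest and fell short of 1000 CPM. Leaf rank 82, just outside the list, had the opposite pattern, with 2170, 2076 and 2262 CPM in inflorescences, and 994, 962 and 990 CPM in leaves.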
